A study of Mus musculus with 6 samples.

Results

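Ribosomal protein (RP) genes encode the proteins of the cytosolic ribosome. They were taken here as all probes whose platform symbol starts with Rpl or Rps and a number, or is Rpsa, Rplp0, Rplp1 or Rplp2, without the Rps6k kinases and without pseudogene symbols containing -ps. This rule uses names and no measured value. It found 96 probes of 65 genes among the 45281 probes of the Illumina MouseWG-6 v2 array. The rule also takes in Rps19bp1, which encodes a protein that binds Rps19 and is no part of the ribosome, and Rps23rg1, a retrogene derived from the Rps23 mRNA.

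The study asked what the loss of the lysine acetyltransferases CBP and p300, co-activators of transcription, does to the tissue that forms the lens. Per the labels, 3 arrays held lens placode of wild-type (WT) mouse embryos at embryonic day 9.5 and 3 arrays held surface ectoderm of CBP/p300-/- (KO) embryos of the same age, all of a mixed FVB and 129 background and all collected by laser microdissection of stained frozen sections. Per the labels, RNA from 3 embryos was pooled for each genotype and each pool was amplified in triplicate, which makes the 3 arrays of a genotype repeat amplifications of 1 pool; the study's text instead calls them biological replicates, and the sources used here do not settle which holds. If the labels hold, the p-values below measure the spread between amplifications, not between embryos. The study's mutants carry floxed alleles that Cre removes in the presumptive lens and head surface ectoderm. Its array methods name the Pax6-Cre line, with Cre-negative embryos as WT, but describe embryos a day older than the labels do. The labels name no Cre line. The tissue name changes together with the genotype, and the effects of tissue and genotype cannot be told apart. In bulk tissue, fewer cells of a type and less RNA per cell cannot be told apart either.

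A ribosome is built from a small 40S and a large 60S subunit, and each of its RNAs is bound by a fixed set of proteins, most of them present as a single copy. RP mRNAs are among the most abundant in growing embryonic tissue. They begin with a terminal oligopyrimidine (TOP) tract, a C followed by further pyrimidines, through which the kinase mTOR sets how well they are translated. RPs that are not built into ribosomes can bind Mdm2 and stabilise p53, and mouse mutants of single RP genes show distinct defects of the skeleton, pigment and blood.

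The arrays placed 12212 to 17195 probes above background, meaning a detection p-value under 0.01 against the negative control beads, and 78 to 87 of the 96 RP probes. WT array 1 had the highest raw median intensity, 141 against 85.6 to 95.5 on the other arrays, and the fewest probes above background. The 10 ectoderm markers examined were above background on all WT arrays and 8 of them on all KO arrays; Foxe3 and Pitx3, transcription factors of the lens placode, were above background on no KO array. Probes for the targeted genes did not check the labels: 2 tested probes of Crebbp (CBP) read 0.19 and 0.11 and 2 of Ep300 (p300) read 0.19 and 2.57 as KO minus WT log2 differences (the last not above background on any WT array), none with an adjusted p under 0.05, and whether they lie within the deleted exons was not examined. Blood markers, mostly globins, were higher in KO for 6 of 6 genes on the array, with a median difference of 1.27. Alas2 was above background on 0 WT arrays and 1 KO array and was not tested, and Slc4a1 on 2 WT and 3 KO arrays. None of the tested blood markers had an adjusted p under 0.05 (limma, 0.0776 to 0.247). Their summed normalised intensity, on the linear scale, was 13700 to 14300 on the KO arrays against 5710 to 7470 on the WT arrays. Summed intensity of the ectoderm markers was 17600 to 19300 in WT and 13300 to 14900 in KO. This sum weighs bright genes most, and Cdh1, the brightest, read -0.39. The other differences were uneven. Six3 read 0.15, Epcam -0.04, Pax6 -0.20, Tfap2a -0.21, Krt18 -0.49 and Krt8 -0.88, while Sox2, Foxe3 and Pitx3 read -1.73, -2.70 and -3.54. Of 4 endothelial genes, Pecam1, Cdh5 and Kdr were not above background on any array. The remaining gene, Cldn5, was above it on 0 WT and 3 KO arrays and read 3.65. The difference in the sum, 128 to 188 in WT and 339 to 887 in KO, thus rests on this 1 gene. Mesenchyme and neural crest markers had a median difference of 0.81, with 2 of 7 above background on all WT arrays and 6 on all KO arrays. Alx4 was above background on 0 WT and 3 KO arrays, and Col1a1 and Col3a1 read 2.98 and 2.32, while Pdgfra read -2.21, so that the summed intensity was 2240 to 3520 in WT and 2330 to 2630 in KO; Twist1 was above background nowhere. Optic vesicle markers had a median of 0.99, with 3 of 4 higher in KO and sums of 771 to 4710 and 1390 to 2140. The part of these other cell types in the RP values was not tested.

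To show the TOP tract in the genes described below, the 30 bases around the annotated transcription start are given for 9 of them, 15 bases before the start and 15 from it onwards, from RefSeq on build GRCm38.p6. The first 6 hold a tract, and the last 3, chosen because Rpl22, Rpl7l1 and Rplp0 carry some of the larger differences between the genotypes, do not. Capitals mark the pyrimidine tract as searched for here, at least 6 C or T bases in a row on the strand of the mRNA. The 6 bases are counted from the first C that lies within 5 bases of the annotated start to the end of the run. Bases of the run before that C do not count. The run itself can begin earlier, as it does in Rpl35, Rplp2, Rpl38, Rps24 and Rpl22l1. The windows are chr2:39005117-39005146 (minus strand) for Rpl35, chr4:86857353-86857382 (minus) for Rps6, chr7:141447636-141447665 (plus) for Rplp2, chr11:114668565-114668594 (plus) for Rpl38, chr14:24490663-24490692 (plus) for Rps24 and chr3:28805493-28805522 (plus) for Rpl22l1. Those without a tract are chr4:152324421-152324450 (plus) for Rpl22, chr17:46782642-46782671 (minus) for Rpl7l1 and chr5:115559452-115559481 (plus) for Rplp0.
Rpl35: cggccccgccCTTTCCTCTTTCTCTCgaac
Rps6: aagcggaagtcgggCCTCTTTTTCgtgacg
Rplp2: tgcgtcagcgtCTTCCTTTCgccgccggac
Rpl38: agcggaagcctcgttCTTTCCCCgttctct
Rps24: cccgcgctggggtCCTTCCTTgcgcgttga
Rpl22l1: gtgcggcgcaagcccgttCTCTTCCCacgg
Rpl22: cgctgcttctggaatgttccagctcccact
Rpl7l1: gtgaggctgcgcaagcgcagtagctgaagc
Rplp0: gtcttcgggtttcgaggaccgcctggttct

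Promoter windows were found for 54 of the 65 genes, and 22 of these (40.7%) held such a tract, against 11.9% of the 27025 genes in the same RefSeq table. On the opposite strand the shares were 7.41% and 15.1%. An ETS-type motif, CCGGAAG on either strand of the 300-base window from 250 bases before the start, was present for 42.6% of RP genes and 9.93% of all genes, and a YY1-type motif, AAGATGG, for 14.8% and 7.28%. The annotated start can lie some bases from the start used in this tissue, so that a gene without a match here, such as Rpl22, may still begin with a tract. Among the RP genes tested, the 21 with a tract had a median KO minus WT difference of -0.15 (range -0.76 to 0.11; 18 negative) and the 28 without one had a median of -0.18 (range -1.36 to 1.30; 24 negative).

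RP mRNAs were present at closely similar levels in the placode and in the mutant ectoderm, with a small shift toward lower values in KO that was shared by most genes. No single gene was called. A call needed a difference of 1 or more in size, so a shift as small as the RP median could not be called. A gene is given below by its brightest tested probe, on the scale of background-corrected, quantile-normalised log2 intensity, and a difference is KO minus WT on that scale. Of 59 RP genes tested, 49 (83.1%) had a negative difference, against 47.8% of all 7141 genes tested. The median difference was -0.15 (quartiles -0.30 and -0.06), against 0.03 over all genes. The 3 KO arrays all lay below the 3 WT arrays for 21 RP genes (35.6%), against 9.96% of all genes, and above them for 1, Rpl17, against 10.5%. With median scaling in place of quantile normalisation the RP median was -0.33, with 56 genes negative, but the genes with all KO arrays lower were 8, against 6.72% of all genes.

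No RP probe was called. Of the 96 probes, 78 were tested because all 3 arrays of at least 1 genotype were above background; 74 of these were above it on all 6 arrays, and the other 4 (Rps20, Rps19bp1, Rpl21 and the dimmest of Rps24) passed through 1 genotype only. A call needed an adjusted p under 0.05 (limma's moderated test with Benjamini-Hochberg adjustment over 12697 probes) and an absolute difference of 1 or more. It was met by 0 of 78 RP probes in either direction, while 0.394% of all probes tested were called lower and 0.417% higher in KO. At an unadjusted p under 0.05 there were 7 RP probes on the lower side (8.97%, against 6.60% of all probes) and 1 on the higher side (1.28%, against 8.58%). The smallest adjusted p among RP probes was 0.0854, for Rpl22. Differences were small for most genes: 48 of 59 (81.4%) lay within 0.5 of no difference, against 53.9% of all genes, and 6 (10.2%) reached 1 in size, against 21.2%. By band of signal, the median absolute difference was 0.14 for both RP probes and all probes at a level of 12 or more, 0.18 against 0.23 at 10 to 12, and larger for RP probes at 8 to 10 (0.70 against 0.43) and under 8 (0.99 against 0.71).

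**Figure D1:**
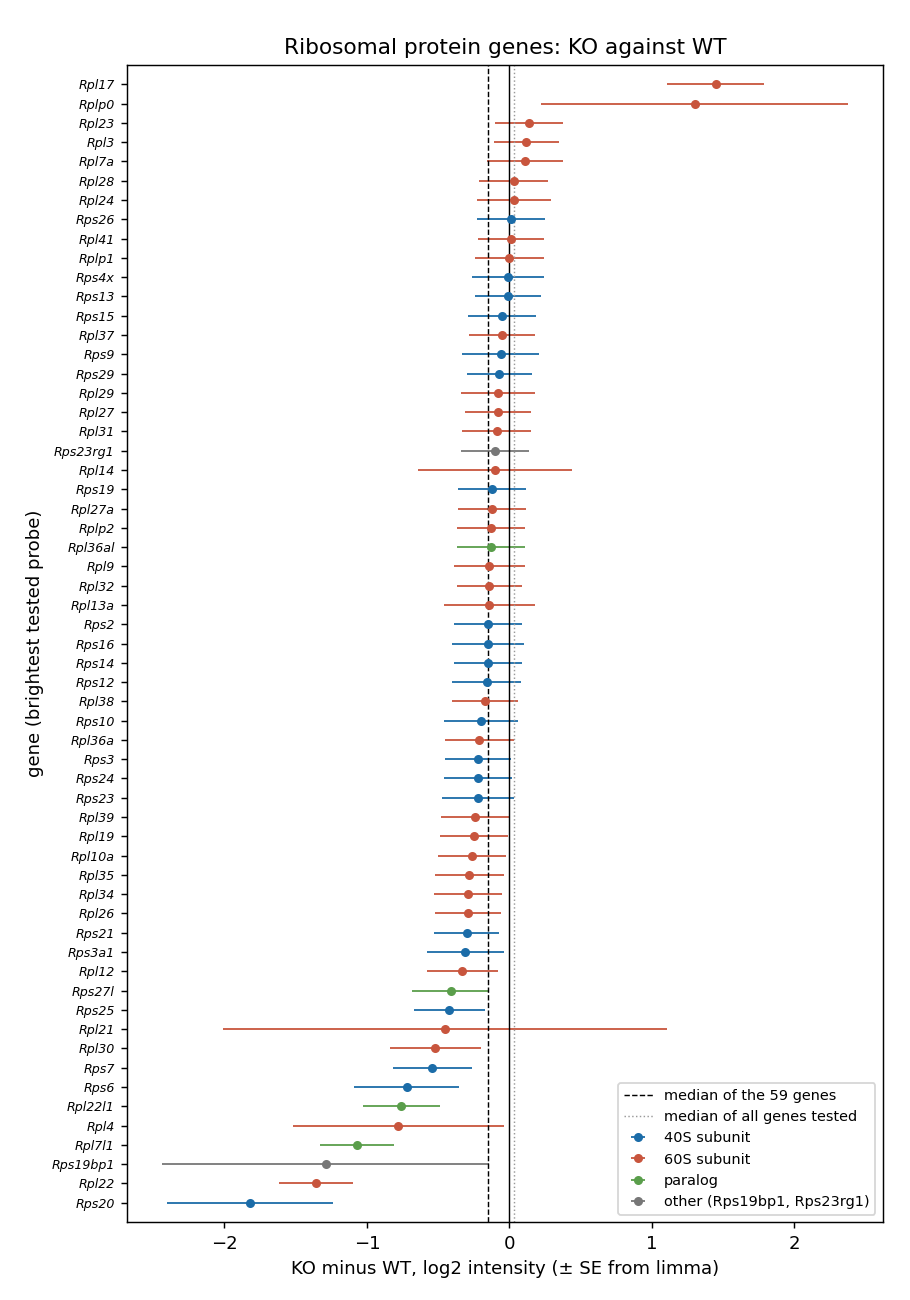
KO minus WT difference in log2 intensity for the 59 RP genes tested, in order, with limma's standard error as bars and colours for the subunit. Points lie mostly left of 0, around the RP median of -0.15 (dashed; all genes 0.03, dotted), with Rps20, Rpl22, Rps19bp1 and Rpl7l1 at the low end and Rplp0 and Rpl17 at the high end.

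The shift was also seen without the fit. The median log2 level over the RP genes was 12.28, 12.33 and 12.31 on WT arrays 1 to 3 and 12.13, 12.02 and 12.14 on KO arrays 1 to 3, so that the lowest WT array stood above the highest KO array. In the raw scanner values, the RP median was 5250, 5100 and 5450 in WT and 4360, 4030 and 4500 in KO, again the values of Rps3 except on KO array 1. RP probes held 3.46%, 3.68% and 3.85% of all background-subtracted intensity in WT and 3.14%, 3.18% and 3.24% in KO. These shares do not overlap between the genotypes either. The same arrays differ in blood and ectoderm marker intensity, as given above.

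The median standard deviation (SD) between the 3 arrays of a genotype was 0.11 in WT and 0.12 in KO, against 0.58 and 0.46 over all genes tested. Their signal was also higher, with a median level of 12.19 against 8.55, and at a level of 12 or more RP probes (0.08 in both genotypes) and all probes (0.10 and 0.09) had nearly the same median SD. Pearson correlations over the RP genes were 0.864 to 0.946 between WT arrays, 0.968 to 0.979 between KO arrays and 0.871 to 0.966 between a WT and a KO array. These values are across genes of the same arrays, which are not independent replicates.

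Genes of the small subunit lay almost all on the lower side. Of 21 genes tested, 20 were negative, with a median of -0.16. For 6 of them (28.6%), Rps3, Rps7, Rps20, Rps21, Rps24 and Rps25, the KO arrays lay below the WT arrays without overlap. The same held for 9.96% of all genes, and for 19.3% of all probes at a level of 12 or more. Rps3, which sits at the mRNA entry channel and also acts in DNA repair, read 12.28, 12.33 and 12.31 in WT and 12.09, 12.02 and 12.14 in KO, a difference of -0.22 ± 0.23 (SE; adjusted p = 0.737). Rps21 read 13.27, 13.16 and 13.32 in WT and 12.97, 12.93 and 12.95 in KO (-0.30 ± 0.23). For both genes every KO array was below every WT array, yet the difference was close to its standard error, which limma moderates over all probes.

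Rps7, which binds Mdm2 and whose mouse mutants have skeletal and eye defects, read 11.42, 11.29 and 11.17 in WT and 10.77, 10.44 and 11.04 in KO. The difference was -0.54 ± 0.28 (adjusted p = 0.431), and the nearest arrays of the genotypes were 0.13 apart. Rps25, needed for translation from several internal ribosome entry sites, read 11.88, 11.59 and 11.82 in WT and 11.22, 11.47 and 11.34 in KO, a difference of -0.42 ± 0.25 (adjusted p = 0.501). All 3 KO arrays were again the lower ones for both.

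Rps20, a protein of the subunit's head whose mutation darkens the skin of mice through p53, had the lowest difference of the RP genes in the main setting. It read 7.07, 8.52 and 7.36 in WT and 5.25, 5.43 and 6.79 in KO, a difference of -1.82 ± 0.58, or 3.54-fold, with an adjusted p of 0.219. The probe was above background on 3 WT arrays and on 1 KO array, KO array 3, so that the size of the difference rests on values near background: it was -1.09 without background correction and -1.37 to -2.29 when single arrays were left out. Rps6, the subunit's main target of S6 kinase, read 8.90, 8.64 and 9.48 in WT and 8.09, 8.82 and 7.97 in KO (-0.72 ± 0.37; adjusted p = 0.439). Here KO array 2 fell among the WT arrays.

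Other 40S genes known from human or mouse disease differed by less. Rps19, mutated in human Diamond-Blackfan anaemia, read 13.44, 13.51 and 13.29 in WT and 13.30, 13.36 and 13.22 in KO (-0.12 ± 0.24). Rps14, lost in the human 5q- syndrome, read 13.67, 13.72 and 13.81 in WT and 13.45, 13.68 and 13.62 in KO (-0.15 ± 0.24). Both overlapped between genotypes. Rps26 (0.01 ± 0.24) was the only tested 40S gene with a positive difference, and Rps4x, the X-linked Rps4 gene, stood at -0.01 ± 0.25. The remaining 40S genes tested (Rps2, Rps3a1, Rps9, Rps10, Rps12, Rps13, Rps15, Rps16, Rps23 and Rps29) lay between -0.31 and -0.01.

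A pair of 40S genes were not tested. Rpsa, the laminin receptor protein of the 40S subunit, had 2 probes, neither above background on any array, with raw intensities of 74.0 to 174. Rps15a read 7.29, 5.12 and 8.93 in WT, above background on 2 arrays, and was above background on no KO array (4.71, 5.89 and 5.53). Its WT mean was 2.41-fold above the KO bound, which uses the dimmest signal still above background on each KO array. WT array 2 lay below KO arrays 2 and 3, so the genotypes overlapped and the fold is uncertain.

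Of the large subunit, 23 of 32 genes tested were negative, with a median of -0.14. For 12 (37.5%), all KO arrays lay below all WT arrays. The same held for 9.96% of all genes, and for 19.3% of all probes at a level of 12 or more. These 12 were Rpl10a, Rpl12, Rpl19, Rpl22, Rpl26, Rpl32, Rpl34, Rpl35, Rpl36a, Rpl37, Rpl38 and Rpl39. Their sizes were small except for Rpl22: the other 11 had differences between -0.33 (Rpl12) and -0.05 (Rpl37).

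Rpl22, a 60S protein that is dispensable for general translation and needed for αβ T cells in mice, had the most separated values. It read 10.48, 10.84 and 10.62 in WT and 9.30, 9.48 and 9.09 in KO. The lowest WT array was 1.00 above the highest KO array. The difference was -1.36 ± 0.26, or 2.56-fold lower in KO, with a p of 0.00187 before and 0.0854 after adjustment (limma, Benjamini-Hochberg), so it did not pass. In raw intensity the values were 1650, 1870 and 1740 in WT and 698, 759 and 625 in KO.

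Rpl35, next to the exit of the peptide tunnel, was lower in KO by more than the median RP gene. Its WT arrays read 13.17, 13.13 and 13.12 and its KO arrays 12.95, 12.72 and 12.92, a difference of -0.28 ± 0.24 (adjusted p = 0.673). Rpl26, a regulator of p53 translation, read 10.80, 10.82 and 10.80 in WT and 10.47, 10.59 and 10.50 in KO (-0.29 ± 0.23). The WT arrays of both genes agreed to within 0.05, and every KO array was lower.

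Rpl38, whose mouse mutants have homeotic changes of the axial skeleton and reduced translation of Hox mRNAs, read 13.73, 13.65 and 13.72 in WT and 13.50, 13.60 and 13.50 in KO (-0.17 ± 0.23). Rpl32 read 13.05, 13.01 and 13.04 in WT and 12.90, 12.92 and 12.85 in KO (-0.14 ± 0.23). Rpl37 had the smallest spread of any RP gene, at 13.29, 13.32 and 13.28 in WT and 13.24, 13.25 and 13.26 in KO (-0.05 ± 0.23). Separation between genotypes thus went down to differences of 0.05 on the log2 scale, about 1.03-fold, with 0.02 between the nearest arrays for Rpl37. Such separation depended on the scaling. Under median scaling, 5 of the 21 RP genes separated in the main setting stayed so.

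Rpl17, which lies by the peptide exit tunnel, was the only RP gene with all KO arrays above all WT arrays. It read 6.83, 7.55 and 7.45 in WT and 8.48, 8.59 and 9.13 in KO. The difference was 1.45 ± 0.34, or 2.73-fold, with an adjusted p of 0.123, and the nearest arrays of the genotypes were 0.93 apart. The probe was above background on all 6 arrays.

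Several other 60S genes were near 0 or uneven. Rpl3, which helps form the peptidyl transferase centre, read 13.38, 13.25 and 13.30 in WT and 13.46, 13.38 and 13.46 in KO (0.12 ± 0.23), and Rpl7a read 11.40, 11.53 and 11.06 in WT and 11.22, 11.48 and 11.61 in KO (0.11 ± 0.27). Rpl24, mutated in the Belly spot and tail mouse, read 11.11, 11.19 and 11.41 in WT and 11.03, 11.37 and 11.41 in KO (0.03 ± 0.26). For these 3 genes the genotypes touched or overlapped, and each turned negative under median scaling (-0.11, -0.03 and -0.11).

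Rpl29, whose loss in mice gives small animals with fragile bones, read 8.94, 8.96 and 9.43 in WT and 9.06, 8.96 and 9.05 in KO (-0.08 ± 0.26). Rpl4 read 9.98, 7.55 and 8.53 in WT and 7.89, 8.80 and 7.02 in KO (-0.78 ± 0.74), a spread within each genotype as wide as the difference, which was -0.13 without WT array 1. The most uneven was Rpl21, at 4.61, 5.65 and 10.78 in WT and 6.67, 6.21 and 6.81 in KO (-0.45 ± 1.56), where WT array 3 alone was above background among the WT arrays. Without WT array 3 the difference of Rpl21 turned to 1.45. Rpl6 was above background on 1 array of each genotype and was not tested. The remaining 60S genes tested (Rpl9, Rpl13a, Rpl14, Rpl27, Rpl28, Rpl30 and Rpl41) lay between -0.52 (Rpl30) and 0.03 (Rpl28), all with overlap.

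The acidic stalk of the 60S subunit, built of Rplp0 with the dimers of Rplp1 and Rplp2, recruits the elongation factors. Rplp1 read 13.01, 12.96 and 12.77 in WT and 12.95, 12.99 and 12.82 in KO, a difference of 0.00 ± 0.24 (-0.19 under median scaling). Rplp2 read 12.55, 12.54 and 12.47 in WT and 12.31, 12.36 and 12.50 in KO (-0.13 ± 0.24), with KO array 3 inside the WT range. Neither stalk dimer gene was separated by genotype.

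Rplp0, often used as a reference gene, was unsteady here. Its brighter probe read 9.96, 8.63 and 6.28 in WT and 10.22, 10.42 and 8.12 in KO (1.30 ± 1.08; adjusted p = 0.655). Its dimmer probe read 8.24, 7.94 and 9.68 in WT and 8.72, 8.20 and 7.18 in KO (-0.59 ± 0.61; adjusted p = 0.732). WT array 3 was the lowest on one probe and the highest on the other, and the probes gave opposite signs, so that these data give no direction for Rplp0. The brighter probe ran from 0.30 without WT array 3 to 2.14 without WT array 1.

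Paralogs, encoded by second copies that can replace the main protein or are confined to some tissues, lay lowest as a class. The 4 tested were all negative with a median of -0.59. Of these, 3 (Rpl22l1, Rpl7l1 and Rps27l) had all KO arrays below all WT arrays, against 9.96% of all genes. Rpl22l1, which is raised when mouse Rpl22 is lost, read 10.99, 11.08 and 11.41 in WT and 10.47, 10.56 and 10.18 in KO. Its difference was -0.76 ± 0.27 (1.69-fold; adjusted p = 0.261), on the same side as that of Rpl22 and with 0.44 between the nearest arrays of the genotypes.

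Rpl7l1 had 2 tested probes that were both lower on every KO array. The brighter read 8.76, 8.86 and 8.86 in WT and 8.04, 7.59 and 7.65 in KO (-1.07 ± 0.26; adjusted p = 0.130). The dimmer read 8.92, 8.38 and 9.15 in WT and 6.28, 5.94 and 7.74 in KO (-2.16 ± 0.53, or 4.48-fold; adjusted p = 0.136). The lowest WT array stood above the highest KO array by 0.73 on the first probe and by 0.64 on the second.

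Rps27l, a p53 target, read 11.56, 12.12 and 11.73 in WT and 11.42, 11.37 and 11.37 in KO (-0.41 ± 0.27; adjusted p = 0.542). Rpl36al read 12.96, 12.76 and 12.93 in WT and 12.67, 12.69 and 12.89 in KO (-0.13 ± 0.24), next to -0.21 ± 0.24 for its main gene Rpl36a, and the KO arrays of the paralog overlapped those of WT. Rpl39, main gene of the testis paralog Rpl39l, read 13.42, 13.52 and 13.36 in WT and 13.08, 13.32 and 13.18 in KO (-0.24 ± 0.24). Near-identical copies such as Rpl36a and Rpl36al can share signal between probes, and this was not examined.

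Paralogs known from other tissues were at or near background. Rpl39l was above background on no array. Rpl3l, the muscle paralog of Rpl3, was above background on 1 WT array (4.60, 6.61 and 4.86 in WT; 4.74, 4.97 and 4.77 in KO), and Rps4l also on 1 WT array, WT array 3 (7.47). None of the 3 was tested. Rpl10l, Rpl10, Rpl7, Rps27, Rpl5 and Rpl11 were not analysed here.

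The genes outside the ribosome that the symbol rule took in did not separate. Rps19bp1, a co-factor of Sirt1, read 9.85, 6.27 and 9.60 in WT and 8.48, 5.79 and 7.58 in KO (-1.29 ± 1.15; adjusted p = 0.686), with replicate 2 of each genotype the lowest and 2 KO arrays above background. Without WT array 2 it read -2.41, and without KO array 2, -0.55. Rps23rg1 read 12.69, 12.72 and 12.42 in WT and 12.43, 12.57 and 12.53 in KO (-0.10 ± 0.24). Its sequence is close to that of Rps23 (-0.22 ± 0.25), and cross-hybridisation between them was not examined.

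**Figure D2:**
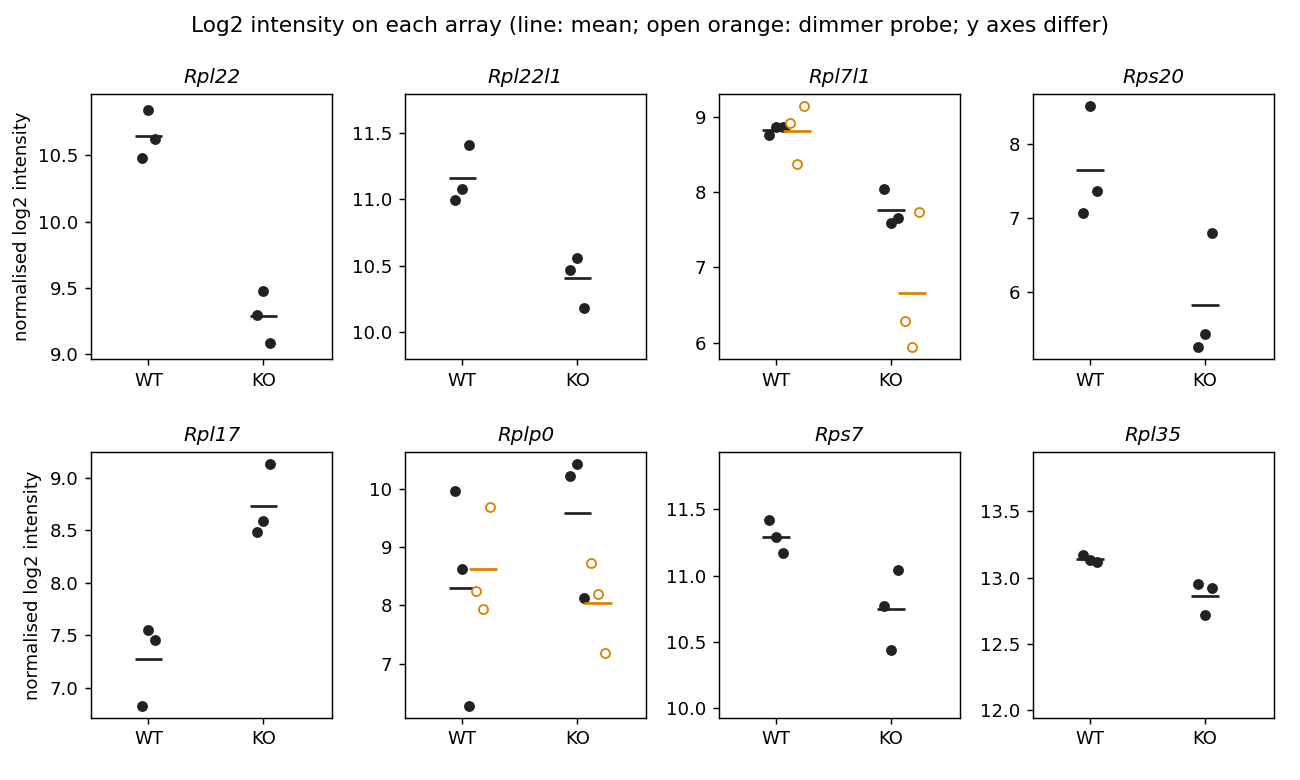
Normalised log2 intensity on each of the 6 arrays for 8 RP genes, with 1 point per array, lines at the mean of a genotype and open points for a second, dimmer probe; y axes differ between panels. KO lies below WT without overlap for Rpl22, Rpl22l1, Rpl7l1, Rps20, Rps7 and Rpl35 and above it for Rpl17, while the 2 probes of Rplp0 move in opposite directions.

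Probes of 1 RP gene could give unlike differences, in a share of genes near that over the whole array. Of the 12 RP genes with at least 2 tested probes, 4 (33.3%) had probes whose differences spanned 1 or more (Rplp0, Rpl23, Rps24 and Rpl7l1), against 32.6% of 2445 genes overall. The median span was 0.43, against 0.63.

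Rpl23, which binds Mdm2 like Rps7, had 4 tested probes that read 0.14 ± 0.24, -0.22 ± 0.24, -0.50 ± 0.47 and -1.28 ± 0.34 from brightest to dimmest. Its brightest probe had the highest raw intensity of any RP probe, 32900, 30700 and 39500 in WT and 38500, 38100 and 43100 in KO. It took the same normalised value, 15.21, on WT array 3 and on all 3 KO arrays, since quantile normalisation gives equal ranks equal values. With the deposited processed values its difference was 0.47 ± 0.23 (adjusted p = 0.426, limma). Its dimmest probe read 7.44, 7.27 and 8.14 in WT and 6.55, 6.42 and 6.03 in KO (adjusted p = 0.159), with no overlap. The probes of this gene thus ran from slightly higher to clearly lower values in KO without any of them passing the test.

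Rps24, another Diamond-Blackfan anaemia gene, had 4 tested probes at -0.22 ± 0.24, -0.76 ± 0.39, -1.41 ± 0.49 and -0.69 ± 0.59, again in order of signal. The brightest read 13.91, 13.81 and 13.93 in WT and 13.60, 13.63 and 13.75 in KO, and the third read 9.81, 8.39 and 9.96 in WT and 8.36, 7.76 and 7.82 in KO. All were negative, the first 3 had no overlap between genotypes, and the dimmest was above background on 2 KO arrays.

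Rpl31 gave -0.09 ± 0.24, -0.94 ± 0.46 and -0.07 ± 0.42. Its second probe read 10.85, 12.00 and 11.32 in WT and 9.75, 11.01 and 10.59 in KO. Rpl27a, whose mouse mutants have p53-dependent cerebellar and pigment defects, had 4 tested probes between -0.45 and 0.00, the brightest at -0.12 ± 0.24. At the other end, both probes of Rps9 (-0.06 and -0.07) and both of Rps2 (-0.15 and -0.16) gave almost the same value. Where the probes lie in the transcripts was not examined.

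The lower values in KO were present at every level of signal. Of the 32 RP probes with a mean log2 level of 12 or more, 26 were negative with a median of -0.14, where all probes in that band had a median of -0.01, and the KO arrays were below the WT arrays without overlap for 43.8%, against 19.3% of all probes there. Between 10 and 12, 21 of 24 were negative (median -0.18; all probes 0.01), and between 8 and 10, 12 of 14 (median -0.55; all probes 0.02). Under 8, all 8 tested RP probes were negative, with a median of -0.99, against 0.13 over all probes in the band; this band holds probes such as Rps20 that passed the filter through WT alone and so tend to negative values.

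The spread between arrays grew in the same order. The median SD of RP probes over the WT arrays was 0.08 in the brightest band, 0.18 and 0.76 in the next bands down and 0.84 in the dimmest (all probes 0.10, 0.29, 0.59 and 0.79), while the standard error over beads of a probe stayed at 2.33% to 3.57% of its intensity. No RP probe at a level of 10 or more reached a difference of 1, and 9 of the 22 dimmer ones did.

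**Figure D3:**
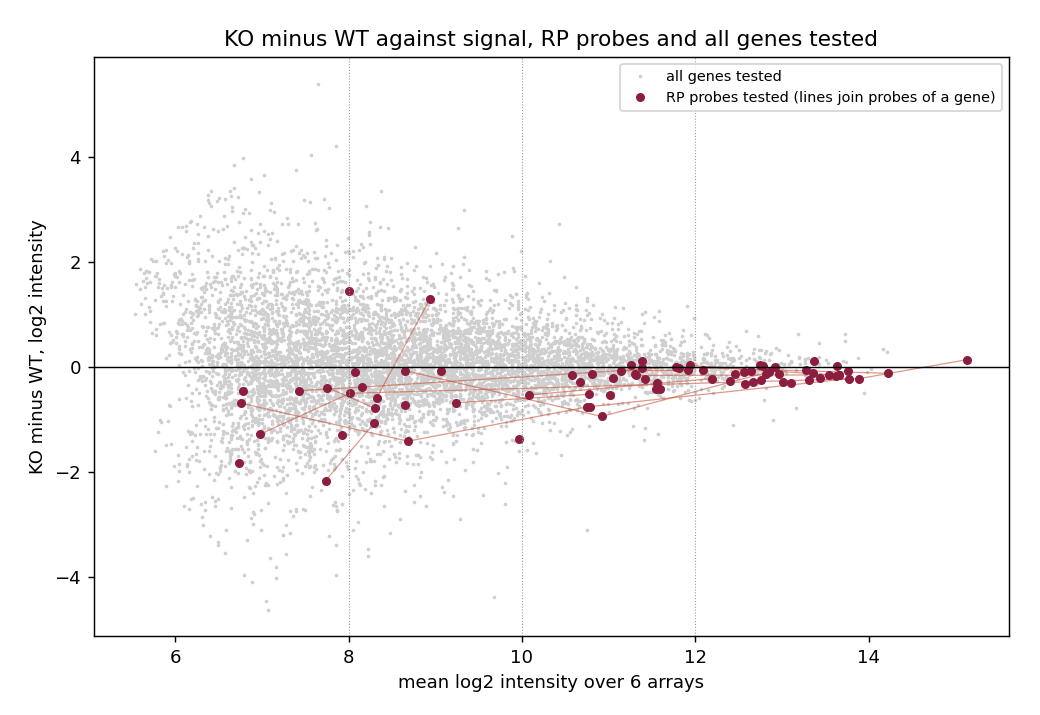
KO minus WT difference in log2 intensity against the mean log2 level over the 6 arrays, for the 78 RP probes tested (dark red, lines joining probes of a gene) and for all 7141 genes tested (grey). RP points range from -2.16 to -0.39 at levels under 8, from -1.41 to 1.45 at 8 to 10, from -0.94 to 0.11 at 10 to 12 and from -0.33 to 0.14 at 12 and over, and lie mostly below 0 in each.

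Other genes of the translation machinery were described by the same counts. Ribosome biogenesis factors, which make and process ribosomal RNA and assemble the subunits, were negative for 34 of 41 genes (82.9%), with a median of -0.26, and 6 had all KO arrays below all WT arrays while 0 had them above. The share with KO below WT, 14.6%, was nearer the 9.96% of all genes than that of the RP genes. Pes1, which processes the 60S precursor, averaged 9.84 ± 0.24 (SD, n = 3) in WT and 7.85 ± 1.06 in KO (-2.00 ± 0.55 SE; adjusted p = 0.174, limma). Nop2, a nucleolar RNA methyltransferase, averaged 7.81 ± 0.73 and 6.14 ± 0.09 (-1.67 ± 0.41; adjusted p = 0.136). At the other end, Nob1, an endonuclease of 18S rRNA maturation, read 1.44 ± 0.98 and Ubtf, a factor of RNA polymerase I, read 0.96 ± 0.70. The share of negative genes was close to that of the RP genes, and no biogenesis factor was called.

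Proteins of the mitochondrial ribosome were negative for 41 of 69 genes, with a median of -0.17. Of the 69, 4 (5.8%) had all KO arrays below WT, against 9.96% of all genes, and 4 had them above, against 10.5%. Translation factors were negative for 27 of 50 with a median of -0.02, and 7 (14%) had all KO arrays below WT and 4 above. Of 16 other genes whose mRNAs carry a TOP tract, 10 were negative (median -0.09). For 5 of the 16 (31.2%) all KO arrays lay below WT, near the 35.6% of RP genes, and for 2 they lay above. The median level of these 16, 12.13, was also close to the 12.19 of the RP genes. Among them, the elongation factor subunit Eef1b2 read -0.62 ± 0.26 and the snoRNA host gene Gas5 -0.42 ± 0.24, while Eef1a1 read 0.14 ± 0.24. No gene of these lists was called in either direction, and differences between the lists were not tested.

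**Figure D4:**
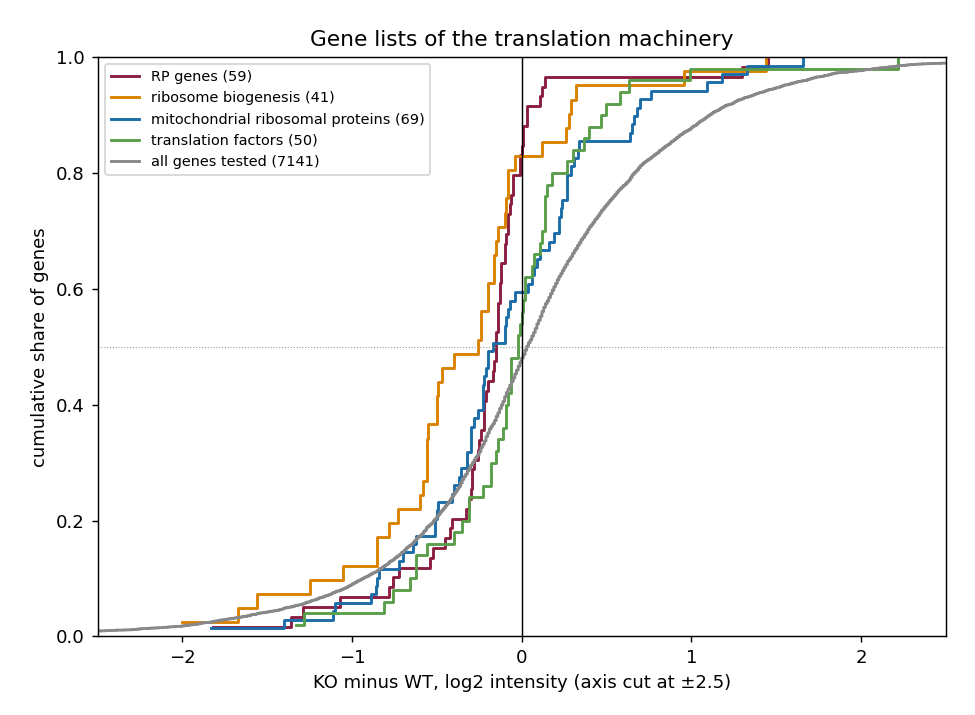
Cumulative share of genes against the KO minus WT difference in log2 intensity, for RP genes (59), ribosome biogenesis factors (41), mitochondrial ribosomal proteins (69), translation factors (50) and all genes tested (7141). The RP curve is steep and reaches 83.1% at 0, near the 82.9% of biogenesis factors, where all genes stand at 47.8%.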

How the data were processed

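Arrays were grouped by the genotype in the labels, with 3 WT and 3 KO. The authors deposited linear bead intensity, not normalised, and a detection p-value for each probe, with bead numbers and bead standard errors. The authors also deposited processed intensities, made with GenomeStudio after cubic spline normalisation (no version is given in the sources used here), which served as an alternative. No per-sample column was left unmapped. Of the probes, 34885 had 1 platform symbol, 18 several and 10378 none.

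Intensities underwent normexp background correction, its parameters estimated from detection p (offset 16), then quantile normalisation and log2 transformation in R 4.3.3 with limma 3.58.1. Probes with detection p under 0.01 on all 3 arrays of a genotype were tested (12697 probes, 7141 genes) with lmFit and eBayes (4 residual and 2.16 prior degrees of freedom), two-sided, with Benjamini-Hochberg adjustment over all of them. The fit took the place of GenomeStudio's test and was tested on simulated data. All 6 arrays lay on 1 BeadChip. No 2 arrays held identical values. Same-numbered arrays of the genotypes did not deviate together.

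RP genes named are the stalk genes and Rpsa, the 5 lowest and 5 highest, the 5 with the widest probe range, paralogs with their main genes, genes known from mutants or as p53 regulators, and the 3 with most and 3 with least spread. Others were chosen after their values were seen, as non-overlapping examples. Members and lists were chosen with earlier results of these data known, and the promoter search and its motifs after the values were seen. The alternatives were other background correction, scaling, filters, probe summaries, array weights, a replicate block and leaving out each array.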

Additional observations from a re-analysis of the deposited data

How the results depend on the processing

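No RP probe was called under any of the 14 alternatives, and the smallest adjusted p among them ran from 0.0772 to 0.225. The median difference of the RP genes was -0.14 to -0.33 over all alternatives. It reached -0.33 under median scaling in place of quantile normalisation, where 56 of 59 genes were negative and all genes had a median of 0.03. Leaving out 1 array at a time gave -0.15 to -0.19. Median scaling also left 8 of 59 RP genes with all KO arrays below WT, against 6.72% of all genes. Of these 8, 5 were among the 21 of the main setting. The deposited processed values gave 20 of 59 below and 2 above, against 9.96% and 10.5% of all genes. These counts were added after the data were seen. Among the 32 named genes, 395 of 413 values kept their sign and their side of the threshold and 18 changed sign, in 8 genes. Under median scaling Rpl24 and Rpl3 each read -0.11, Rpl7a -0.03 and Rplp1 -0.19; the processed values gave Rpl27a 0.10, and array weights gave Rplp1 -0.01. Leaving out single arrays moved Rpl24 over -0.04 to 0.15, Rps4x over -0.07 to 0.09, Rpl21 over -1.63 to 1.45, Rpl29 over -0.17 to 0.07, Rpl7a over -0.03 to 0.22 and Rplp1 over -0.07 to 0.05; the highest value of Rpl21 came without WT array 3. Larger moves with no change of sign were 0.30 to 2.14 for Rplp0, -2.41 to -0.55 for Rps19bp1, -1.33 to -0.13 for Rpl4 and -2.29 to -1.37 for Rps20, which also read -1.09 without background correction. The causes were not tested. With the replicate number as a block, 0 RP probes and 0 probes overall were called, the RP median stayed at -0.15 and the smallest adjusted p among RP probes was 0.208. The numbers do not pair the arrays: deviations of same-numbered arrays correlated at -0.03 to 0.00. If the 3 arrays of a genotype come from 1 pool, as labelled, the precision covers amplification only. Probes near background, such as Rps20 in KO, have no measured lower level. For a single gene, an exact permutation test of 3 against 3 arrays could not go below 0.1.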
